A study of Mus musculus with 20 samples.

Results

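The genes of MHC class I antigen presentation were followed through the development of ultraviolet (UV)-induced skin cancer in mice. They were the 10 rows, of the 22090 in the count table, with the symbols H2-K1 and H2-D1 (heavy chains), B2m (light chain), Tap1, Tap2 and Tapbp (peptide transport and loading), Psmb8, Psmb9 and Psmb10 (immunoproteasome) and Nlrc5 (transcriptional activator). Bulk RNA-seq had been done on 20 pieces of skin from female SKH-1 mice, a hairless strain in which UV gives rise to skin tumors. By the study's methods the mice were 7 months old when divided into groups, and skin was taken after the weeks of irradiation that followed. Of the 8 mice, 4 were kept without UV and 4 were irradiated, daily by the sample labels and on fewer days by the study's methods. Normal skin (NS, 8 samples) came from both sets of mice, and actinic keratosis (AK, 8 samples), a precancerous lesion, and cutaneous squamous cell carcinoma (cSCC, 4 samples) came from the irradiated mice. No allele, transgene or drug set the groups apart. The labels give neither the mouse of a sample, nor which NS was irradiated, nor the grade of an AK. As 4 mice gave all 8 AK and all 4 cSCC, samples that share a mouse were treated as independent. The p-values may be too small, or too large where the groups compared share mice.

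MHC class I molecules display fragments of a cell's own proteins to CD8 T cells. Proteasomes cut the proteins, the TAP transporter carries the peptides into the endoplasmic reticulum, and tapasin helps to load them onto a heavy chain bound to beta-2 microglobulin. Interferon-gamma raises most of these genes and exchanges the catalytic subunits of the constitutive proteasome for those of the immunoproteasome, and NLRC5 acts in the nucleus on the promoters of class I genes without binding DNA itself. Skin tumors, like others, can escape T cells when part of this pathway is low.

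Total counts were 1624325 to 6295575 in NS, 867219 to 14055206 in AK and 775750 to 7095102 in cSCC. In the shallowest libraries, AK replicate 12 and cSCC replicate 20, 3 counts correspond to 3.78 and 3.41 CPM (counts scaled to a common library size). The cSCC libraries stood apart from each other. In cSCC replicate 20 the summed level of 6 lung epithelium markers was 35805 CPM, against at most 51.7 CPM in any other library. In cSCC replicate 21 that of 6 heart muscle markers was 46183 CPM, against at most 131 CPM elsewhere. Markers of keratinocytes (6 genes) summed to 17976 and 17175 CPM in cSCC replicates 18 and 19 and to 5145 and 3785 CPM in replicates 20 and 21, while NS held 6378 to 19004 CPM. The sums hide differences within the list. Krt1 (13.2 to 820 CPM) and Krt10 (9.23 to 321 CPM) in cSCC lay below every NS library (lowest 933 and 899 CPM), as did 5.73% of genes tested. Krt5, Krt14, Trp63 and Dsg3 overlapped between cSCC and NS. For cSCC replicate 18 the scaling factor (TMM) was 0.509, while it was 0.852 to 1.22 in the other 19 libraries. The cSCC values of the 10 genes are therefore also given without replicates 20 and 21. A level in bulk tissue cannot tell fewer cells of a type from less RNA per cell.

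Genes of the pathway share control regions, and the promoters are shown because NLRC5, whose gene had the largest log2 difference of the 10 in cSCC, acts on them. Of the 10 genes, 8 had an entry in the RefSeq promoter table (250 bases before to 50 bases after the start, build GRCm38.p6); Tap2 and Nlrc5 had none. A cAMP response half-site, TGACG, followed by an inverted CCAAT box, ATTGG, that starts 25 bases after the half-site's first base is the spacing of the X2 and Y boxes of class I promoters. It was found in H2-K1, H2-D1 and B2m and in none of the other 5, when both strands were searched. In the table, 26 of 27025 promoters (0.0962%) held it. A match to the NF-kappaB consensus was also found in the same 3 promoters (4.35% of all promoters). The interferon-stimulated response element, searched as GAAA, any 2 bases and GAAA, matched in B2m alone among the 8 (3.49% of all), and the gamma-activated site, searched as TTC, any 3 bases and GAA, in Psmb8 alone (8.47%). These matches describe letters of the reference strain's genome and not binding in these samples. Capitals mark the matches, which are, in order, NF-kappaB, TGACG and ATTGG in H2-K1 and H2-D1, and the interferon-stimulated element, NF-kappaB, TGACG and ATTGG in B2m.
H2-K1, chr17:34000298-34000597, minus strand: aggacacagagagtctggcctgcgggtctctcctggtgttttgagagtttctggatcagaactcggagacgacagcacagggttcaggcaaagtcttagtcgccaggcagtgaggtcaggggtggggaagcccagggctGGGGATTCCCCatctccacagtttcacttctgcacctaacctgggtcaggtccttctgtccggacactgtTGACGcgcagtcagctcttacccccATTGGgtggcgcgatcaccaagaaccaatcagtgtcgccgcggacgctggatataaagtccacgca
H2-D1, chr17:35262844-35263143, plus strand: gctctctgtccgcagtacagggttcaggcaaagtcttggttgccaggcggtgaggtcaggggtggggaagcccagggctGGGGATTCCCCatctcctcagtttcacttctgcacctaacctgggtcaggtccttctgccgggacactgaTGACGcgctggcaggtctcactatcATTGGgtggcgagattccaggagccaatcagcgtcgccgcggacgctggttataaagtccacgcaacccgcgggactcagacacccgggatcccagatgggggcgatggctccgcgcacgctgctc
B2m, chr2:122147437-122147736, plus strand: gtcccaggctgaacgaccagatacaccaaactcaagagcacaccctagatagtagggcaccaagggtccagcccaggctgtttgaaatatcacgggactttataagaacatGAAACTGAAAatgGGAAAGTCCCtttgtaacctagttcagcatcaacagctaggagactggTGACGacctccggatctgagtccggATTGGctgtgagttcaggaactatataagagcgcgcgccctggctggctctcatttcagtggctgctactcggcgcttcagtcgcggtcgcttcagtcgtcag
Tap1 and Psmb9 start head to head on chromosome 17 and their windows share 275 bases. Their shared region held TGACG and CCAAT, each a common match (21% and 37.9% of all promoters), but not at that spacing. It is shown as read for Tap1, with no capitals.
Tap1, chr17:34187306-34187605, plus strand: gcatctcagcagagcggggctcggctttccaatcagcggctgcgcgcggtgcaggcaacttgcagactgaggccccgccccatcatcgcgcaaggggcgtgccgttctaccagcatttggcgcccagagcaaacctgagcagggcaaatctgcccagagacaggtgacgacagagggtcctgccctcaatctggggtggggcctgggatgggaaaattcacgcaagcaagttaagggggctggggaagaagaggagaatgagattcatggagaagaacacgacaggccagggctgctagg

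In the annotation (GENCODE release M21 on GRCm38, matched by symbol) 7 of the 10 genes lie on chromosome 17, with Psmb9 (34181987 to 34187764), Tap1 (34187553 to 34197225), Psmb8 (34197721 to 34201454) and Tap2 (34203527 to 34216321) as neighbors, flanked at a distance by Tapbp (33915899 to 33929292), H2-K1 (33996017 to 34000347) and H2-D1 (35262730 to 35267499). B2m is on chromosome 2 (122147686 to 122153083), and Nlrc5 (94434356 to 94527272) and Psmb10 (105935735 to 105938444) are on chromosome 8. All 10 are protein-coding, and each level counts reads over the whole gene as the authors assigned them. Of the 50-base stretches of their transcripts, 13.9% for H2-D1 and 6.87% for H2-K1 occur in other genes as well, mainly other class I heavy chains, so counts of these genes are uncertain. The share was 3.50% for Tapbp, 0.834% for Tap1, 0.708% for Tap2 and 0 for the other 5. Because the strand used in counting is not stated, reads where a gene overlaps another cannot be assigned with certainty. Such overlaps were annotated for all members but H2-K1 and H2-D1: Tap1 with Psmb9, B2m with Patl2, Psmb10 with Gm16156, Tap2 with Gm20496 and Gm15821, Psmb8 with Gm20496, Tapbp with Zbtb22 and Gm19412, and Nlrc5 with 9330175E14Rik and Mir7072. Class I heavy chains differ between mouse strains, and how reads of SKH-1 mice fitted the reference strain was not tested.

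Per kilobase of exon, B2m had by far the highest level of the 10 in NS, 6169 ± 1408 CPM per kb (SD, n = 8). H2-K1 came next (594 ± 155), then H2-D1 (352 ± 82.9) and Psmb8 (74.8 ± 48.5). Below these were Tapbp (33.1 ± 9.98), Psmb9 (31.1 ± 13.9), Psmb10 (25.5 ± 10.8), Tap1 (15.6 ± 5.97), Nlrc5 (8.55 ± 2.62) and Tap2 (5.11 ± 2.51). From Psmb8 down, the SD range of each gene overlapped that of the next. The order in AK was that of NS. In cSCC it changed at 3 places, as H2-D1 (443 ± 158, SD, n = 4) stood above H2-K1 (377 ± 244), Psmb10 (48.3 ± 13.1) above Tapbp (34.4 ± 4.00) and Psmb9 (25.8 ± 20.6), and Tap2 (4.92 ± 3.42) above Nlrc5 (2.02 ± 1.47). The SD ranges of the genes that changed places overlapped in cSCC.

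**Figure D1:**
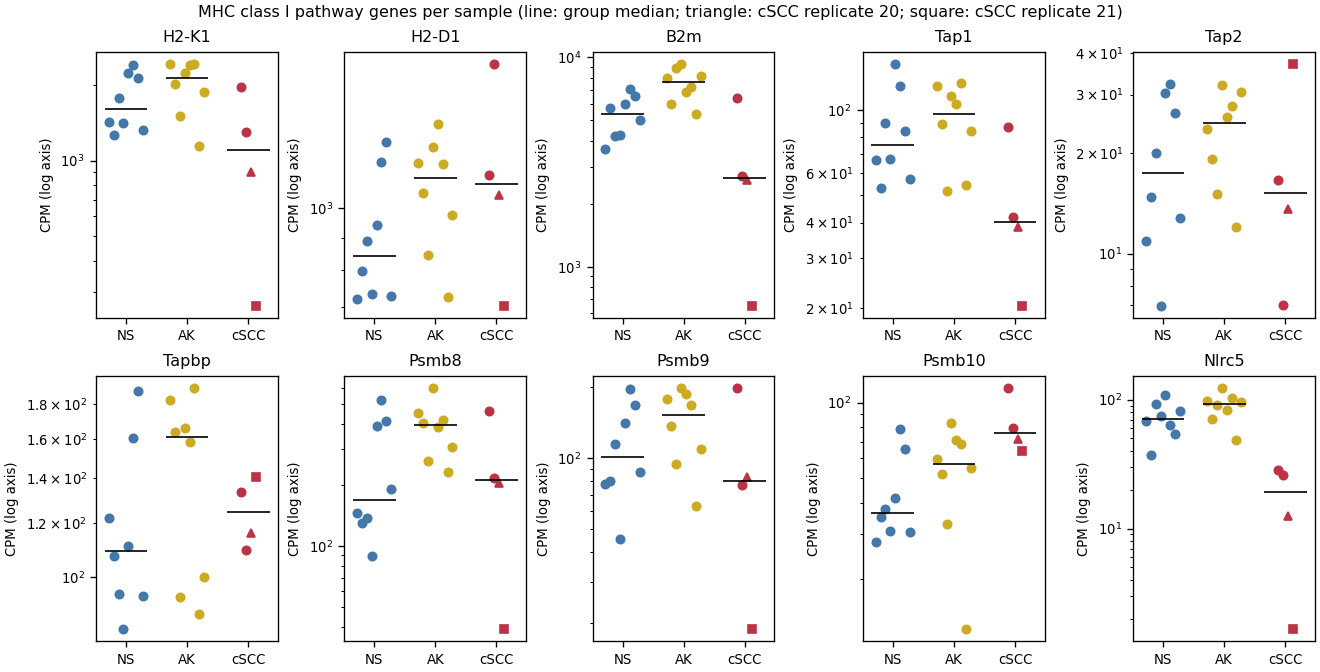
Level of each of the 10 genes in each library, in CPM on a log axis that differs between panels, for 8 NS, 8 AK and 4 cSCC. The line is the group median, the triangle is cSCC replicate 20 and the square is cSCC replicate 21. For Nlrc5, the 4 cSCC libraries (1.65 to 28.5 CPM) sit below every NS and AK library, and in the other panels the groups overlap.

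Each group pair was compared by edgeR's quasi-likelihood test on all genes that passed a low-count filter, and genes with a fold change over 1.5 or under 0.67 whose adjusted p-value was under 0.05 were taken as DEGs. In AK vs. NS, none of the 10 genes was a DEG, while 4.64% of the 11677 genes tested were (2.26% higher and 2.38% lower). By the unadjusted p-value 1 of the 10, B2m, was under 0.05, and by DESeq2 and limma voom the count was again 0 of 10. All 10 log2 fold changes were positive (47.0% of all genes were) with a median of 0.28, against -0.04 over all genes. In cSCC vs. NS, 2 of the 10 were DEGs: Psmb10 rose and Nlrc5 fell, while 11.7% of 12097 genes rose and 7.65% fell. The median log2 fold change of the 10 was -0.16, with 4 positive and 6 negative, against 0.14 over all genes. In cSCC vs. AK, Nlrc5 alone of the 10 was a DEG and fell, while 8.34% of 12032 genes fell and 16% rose. The median was -0.59, with 2 positive and 8 negative, against 0.17 over all genes. Counted in either direction, 19.3% of all genes were DEGs in cSCC vs. NS and 24.4% in cSCC vs. AK, so 2 of 10 was near and 1 of 10 below the share of all genes. The levels of NS and AK overlapped for all 10 genes (they did not in 0.394% of all genes, AK above, and 0.128%, AK below), no member lay wholly above NS or AK in cSCC (2.7% and 3.33% of all genes did), and Nlrc5 was the 1 that lay wholly below both.

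**Figure D2:**
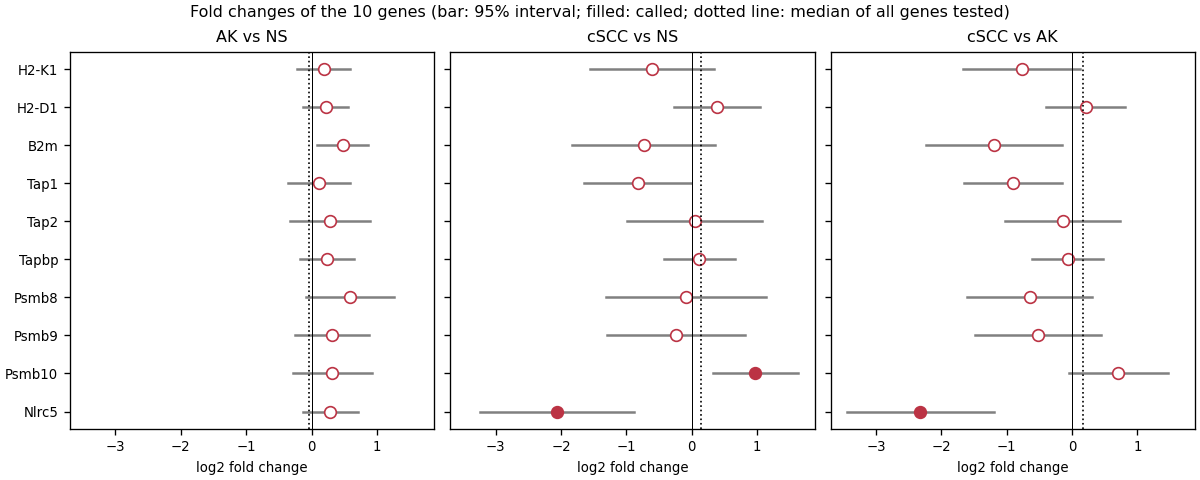
Log2 fold change of the 10 genes in the 3 comparisons, with bars for the 95% interval, filled circles for DEGs and a dotted line at the median of all genes tested. Filled circles appear for Nlrc5 in both cSCC comparisons (-2.06 and -2.32) and for Psmb10 in cSCC vs. NS (0.97).

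Nlrc5, the activator of class I genes, was the member with the clearest difference. Its level was 37.1 CPM at the lowest, 71.4 at the median and 109 at the highest in NS, and 48.5, 93.2 and 124 CPM in AK. In cSCC it was 28.5 CPM in replicate 18, 25.9 in replicate 19, 12.5 in replicate 20 and 1.65 in replicate 21. All 4 cSCC values were below all 16 values of NS and AK, a complete separation also seen in 5.73% (vs. NS) and 6.84% (vs. AK) of genes tested. The cSCC counts behind these levels were 41, 59, 11 and 10 reads, so the 2 lowest values carry the most counting error. The level fell to 0.240 of that in NS (95% interval 0.106 to 0.543; log2 fold change -2.06 ± 0.55, SE; adjusted p = 0.0197, edgeR) and to 0.200 of that in AK (0.0920 to 0.436; -2.32 ± 0.53; adjusted p = 0.00789). Between AK and NS, the log2 difference was 0.29 with a 95% interval of -0.13 to 0.70.

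Nlrc5 also fell when the libraries with lung and heart genes were left out. Without replicates 20 and 21, its log2 fold change was -1.39 against NS (adjusted p = 0.0333, edgeR) and -1.65 against AK (adjusted p = 0.00690). Without replicate 21 alone, it was -1.63 and -1.96. Leucocyte markers (14 genes) summed to 246 to 706 CPM in NS, 371 to 1127 CPM in AK, and 249, 485, 586 and 149 CPM in cSCC replicates 18 to 21. They thus overlapped between the groups, and the library lowest in Nlrc5 was also lowest in leucocyte markers. The other cSCC libraries did not follow that order. Replicate 20, next lowest in Nlrc5 (12.5 CPM), had the highest leucocyte sum of the cSCC libraries (586 CPM), and replicate 18, highest in Nlrc5 (28.5 CPM), had 249 CPM. Of 9 leucocyte markers tested, 8 had a negative log2 fold change against AK (median -0.96) and 7 against NS (median -0.20). Over all genes the medians were 0.17 and 0.14. By edgeR 1 of the 9 fell in each comparison, where 8.34% (vs. AK) and 7.65% (vs. NS) of all genes fell. DESeq2 gave 2 lower DEGs against AK, and limma voom gave 0 in either comparison. The 1 by edgeR was Nkg7, a granule gene of cytotoxic cells, with log2 fold changes of -2.73 against NS and -2.86 against AK (adjusted p = 0.00814 and 0.00533, edgeR). Its level was 24.6 to 83.5 CPM in NS, 22.8 to 135 in AK and 1.32 to 16 in cSCC, so that cSCC lay below both groups. Ptprc, the pan-leucocyte gene CD45, was at 84.0, 185, 209 and 48.0 CPM in cSCC replicates 18 to 21, 2 inside, 1 above and 1 below the range of 81.1 to 193 CPM in NS. Cd8a, the co-receptor of the T cells that read class I, was at 0 counts in cSCC replicates 18, 20 and 21 and at 4.39 CPM in replicate 19, while NS held 0.900 to 11 CPM. AK ran from 0 counts, in replicates 12 and 16, to 19.4 CPM. Endothelial markers (5 genes) summed to 23.1 to 88.5 CPM in NS, 28.9 to 79.1 CPM in AK and 88.9, 91.8, 149 and 501 CPM in cSCC replicates 18 to 21. The cSCC sums were above every other library, but by little in replicates 18 and 19. With all samples, 4 of the 5 genes rose against NS and all 5 against AK by edgeR, where 11.7% and 16% of all genes rose. Without replicates 20 and 21, none of the 5 genes was a DEG against NS or AK. The part of leucocytes and of endothelial cells in the lower Nlrc5 level was not tested.

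The heavy chains H2-K1 and H2-D1 and the light chain B2m gave no DEG in the 3 comparisons by edgeR with TMM factors and all samples. B2m had an unadjusted p under 0.05 in 2 of them. H2-K1 was at 1259, 1602 and 2397 CPM (lowest, median and highest) in NS, at 1140, 2133 and 2424 CPM in AK, and at 1973, 1295, 901 and 264 CPM in cSCC replicates 18 to 21. The cSCC values ran from inside the NS range to far below it. Its log2 fold change was -0.61 for cSCC vs. NS (95% interval -1.56 to 0.34) and -0.77 for cSCC vs. AK (-1.66 to 0.12), and without replicates 20 and 21 it was -0.07 and -0.23. H2-D1 was at 721, 842 and 1273 CPM in NS, at 726, 1114 and 1357 in AK, and at 1130, 1685, 1051 and 703 CPM in cSCC replicates 18 to 21. Here 3 of the 4 cSCC libraries were above the NS median, with log2 differences of 0.38 (-0.27 to 1.04) from NS and 0.21 (-0.39 to 0.80) from AK, or 0.66 and 0.47 without replicates 20 and 21.

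B2m, the invariant light chain, was at 3662, 5362 and 7045 CPM in NS and at 5348, 7598 and 9278 CPM in AK. It was at 6400 CPM in cSCC replicate 18, at 2710 and 2605 in replicates 19 and 20, and at 652 CPM in replicate 21. By CPM, all cSCC libraries but replicate 18 were thus below every NS and AK library. The TMM factor of 0.509 raised the CPM of replicate 18. It held 9214 B2m counts of about 2830890. In NS replicate 1 and AK replicate 16, the lowest of their groups, there were 20805 of about 4672950 and 8924 of about 1604220. Scaled by total counts alone, cSCC replicate 18 too lay below every NS and AK library. The log2 fold change was -0.74 for cSCC vs. NS (-1.83 to 0.36; adjusted p = 0.335) and -1.19 for cSCC vs. AK (-2.24 to -0.15; adjusted p = 0.0864, edgeR). Without replicate 18, B2m was a DEG in both, at -1.39 (adjusted p = 0.0472) and -1.87 (adjusted p = 0.00883), and by DESeq2 with all samples it was a DEG against AK (-1.16, adjusted p = 0.0203). Without replicate 21 the differences were smaller, at -0.40 and -0.93 (adjusted p = 0.520 and 0.0874, edgeR), and without replicates 20 and 21 they were -0.20 and -0.66 (adjusted p = 0.791 and 0.256). In AK vs. NS, the log2 fold change was 0.48 ± 0.19 (SE), a fold of 1.39, with an unadjusted p of 0.0200 and an adjusted p of 0.128 by edgeR; the adjusted p was 0.0440 by DESeq2 and 0.0315 by limma voom, but the fold stayed under 1.5.

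Within a library, the summed counts of H2-K1 and H2-D1 were compared with those of B2m, a ratio that needs no scaling between libraries. As log2, the ratio was -1.0 ± 0.26 in the 8 NS, -1.29 ± 0.36 in the 8 AK and -0.19 ± 0.70 in the 4 cSCC (mean ± SD). In cSCC replicates 18 to 21 there were 0.485, 1.10, 0.749 and 1.48 heavy chain counts per B2m count. Replicates 19, 20 and 21 lay above all 16 NS and AK libraries and replicate 18 lay inside their range. The log2 difference was 0.81 from NS (exact permutation test over 495 splits, two-sided, p = 0.0162) and 1.10 from AK (p = 0.00808, exact), and with adjustment over the 12 ratio tests both had p = 0.0646, exact. Without replicate 18 the differences were 1.10 and 1.39, each with an adjusted p of 0.0364, exact permutation. Without replicate 21 they were 0.56 and 0.85 (adjusted p = 0.164 and 0.117, exact permutation), and without replicates 20 and 21 they were 0.55 and 0.84 (adjusted p = 0.427 and 0.267, exact). With 4 against 8 samples, the smallest p such a test allows is 0.00202.

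Of the transport and loading genes, none was a DEG by edgeR with TMM factors and all samples of each pair of groups. Tap1 had an unadjusted p under 0.05 in both cSCC comparisons. Tap1, one chain of the peptide transporter, was at 53.0, 75.5 and 145 CPM in NS, at 51.7, 97.0 and 125 CPM in AK, and at 86.8, 41.7, 38.7 and 20.3 CPM in cSCC replicates 18 to 21. As with B2m, the cSCC libraries other than replicate 18, whose TMM factor of 0.509 raised its CPM, lay below all NS and AK libraries. The log2 fold change was -0.83 for cSCC vs. NS (95% interval -1.65 to -0.01; adjusted p = 0.142, edgeR) and -0.90 for cSCC vs. AK (-1.65 to -0.16; adjusted p = 0.0707), and without replicate 18 it was -1.32 (adjusted p = 0.0212) and -1.45 (adjusted p = 0.00780). Without replicate 21 it was -0.57 and -0.73 (adjusted p = 0.312 and 0.144, edgeR), and without replicates 20 and 21 it was -0.40 and -0.49 (adjusted p = 0.560 and 0.400). Tap2, the other chain, was at 6.97, 17.4 and 32.2 CPM in NS, at 12, 24.6 and 32.0 CPM in AK, and at 16.7, 7.03, 13.7 and 37.0 CPM in cSCC. It was highest of all libraries in replicate 21, where Tap1 was lowest. Its log2 differences were 0.04 (-0.99 to 1.07) from NS and -0.14 (-1.03 to 0.74) from AK, or -0.70 and -0.96 without replicates 20 and 21. Tapbp, the gene of tapasin, was at 133, 109, 116 and 140 CPM in cSCC, within the 83.7 to 188 CPM of NS and the 88.1 to 190 CPM of AK, and its log2 differences were 0.12 (-0.42 to 0.66) and -0.07 (-0.61 to 0.47), or 0.039 and -0.17 without replicates 20 and 21.

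Of the 3 immunoproteasome subunits, Psmb10 was a DEG by edgeR with TMM factors and all samples, in cSCC vs. NS, and Psmb8 and Psmb9 were not in any comparison. Psmb10 was at 28.0, 36.4 and 78.5 CPM in NS, at 12.6, 57.1 and 83.0 CPM in AK, and at 115, 79.1, 71.7 and 64.3 CPM in cSCC. Its cSCC values lay in or above the upper part of the NS range, of which NS replicates 7 and 8 (78.5 and 65.5 CPM) alone reached them. It rose 1.96-fold in cSCC vs. NS (95% interval 1.25 to 3.09; log2 fold change 0.97 ± 0.31, SE; adjusted p = 0.0390, edgeR), and the log2 difference from AK was 0.70 (-0.05 to 1.46; adjusted p = 0.159). The rise was a DEG by DESeq2 (adjusted p = 0.0226) but not by limma voom (0.0543). It was not a DEG after leaving out cSCC replicate 18 (0.76, adjusted p = 0.0989), 19 (0.0675) or 20 (0.0522), nor without replicates 20 and 21 (1.17, adjusted p = 0.0544, edgeR), and with library size in place of TMM factors the log2 fold change was 0.64 (adjusted p = 0.160).

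Psmb8 was at 89.8, 169 and 523 CPM in NS, at 231, 395 and 602 CPM in AK, and at 464, 217, 205 and 39.0 CPM in cSCC. In NS, replicates 6, 7 and 8 held 391 to 523 CPM and the other 5 held 89.8 to 192 CPM. Whether those 3 were from irradiated mice cannot be told from the labels. The log2 difference was 0.58 for AK vs. NS (95% interval -0.09 to 1.26), -0.09 for cSCC vs. NS (-1.32 to 1.14) and -0.65 for cSCC vs. AK (-1.60 to 0.30). Psmb9 was at 45.4, 101 and 196 CPM in NS, at 62.9, 153 and 199 CPM in AK, and at 199, 76.9, 83.1 and 18.9 CPM in cSCC, with log2 differences of 0.31, -0.23 and -0.52 in the same 3 comparisons. Without replicates 20 and 21, the differences of cSCC from NS and AK were 0.45 and -0.11 for Psmb8 and 0.29 and -0.0024 for Psmb9. For both genes, cSCC replicate 21 had the lowest value of all 20 libraries and replicate 18 lay within the range of AK.

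Each immunoproteasome subunit was also set against the constitutive subunit that it replaces, as a ratio of counts within a library. The log2 ratio of Psmb8 to Psmb5 counts was 0.52 ± 0.83 in the 8 NS, 1.34 ± 0.47 in the 8 AK and 0.09 ± 1.62 in the 4 cSCC (mean ± SD). The difference of 0.82 between AK and NS had p = 0.0292 in the exact permutation test and 0.0701 after adjustment over 12 tests, and that of -1.25 between cSCC and AK had p = 0.0283, exact, and the same adjusted value. In cSCC there were 2.55, 1.66 and 1.49 Psmb8 counts per Psmb5 count in replicates 18 to 20 and 0.206 in replicate 21. Without replicate 18 the cSCC vs. AK difference was -1.67 (adjusted p = 0.0485, exact permutation), and without replicate 21 it shrank to -0.46. The ratio of Psmb10 to Psmb7 was 0.76 higher in cSCC than in NS on the log2 scale (p = 0.0162, exact permutation, adjusted p = 0.0646), with -1.56 ± 0.26 (SD, n = 4) against -2.32 ± 0.44 (SD, n = 8), and 0.91 higher without replicates 20 and 21 (adjusted p = 0.175, exact permutation). The ratio of Psmb9 to Psmb6 differed by 0.21 between AK and NS, by -0.29 between cSCC and NS and by -0.51 between cSCC and AK (p = 0.438, 0.562 and 0.331, exact). None of the 12 ratio tests passed after adjustment, and 5 had an unadjusted p under 0.05. Psmb5, Psmb6 and Psmb7 themselves gave no DEG in any comparison by edgeR, DESeq2 or limma voom. Of their 9 tests, Psmb7 in cSCC vs. AK (0.51, 95% interval 0.07 to 0.94) was the 1 with an unadjusted p under 0.05 by edgeR.

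**Figure D3:**
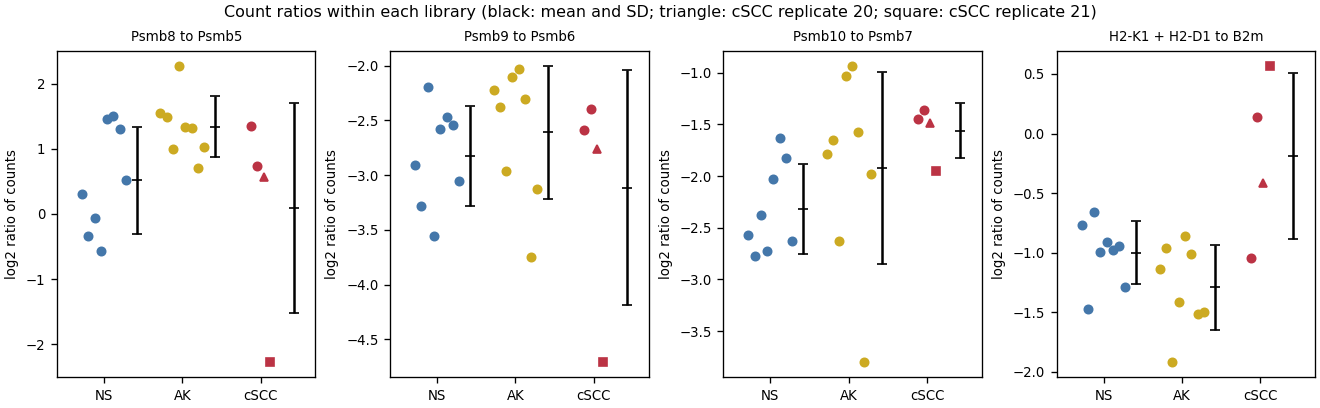
Log2 ratio of counts within each library for the 3 immunoproteasome subunits to their constitutive counterparts and for H2-K1 plus H2-D1 to B2m, by group, with the mean and SD in black, a triangle for cSCC replicate 20 and a square for cSCC replicate 21. AK sits higher than most NS for Psmb8 to Psmb5 (means 1.34 and 0.52), cSCC replicate 21 lies far below for the first 2 ratios, and 3 of 4 cSCC libraries lie above all others for the heavy chains to B2m.

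Within each group, single libraries were high or low for most of the 10 genes. In NS, replicate 7 had the highest value for 6 of the 10 genes, and replicates 6, 7 and 8 were above the NS median for 10, 9 and 9 of them. In AK, replicate 13 was highest for 6 and replicate 16, one of the shallower libraries, was lowest for 9. In cSCC, replicate 18 was highest for 7 and replicate 21, with the heart genes, was lowest for 8, its exceptions being Tap2 and Tapbp, which were highest there. The TMM factor of 0.509 raised every CPM of replicate 18. Leaving out replicate 18 changed the count of DEGs among the 10 from 2 to 3 for cSCC vs. NS (B2m, Tap1 and Nlrc5, all lower, and Psmb10 no longer) and from 1 to 5 for cSCC vs. AK (H2-K1 at -1.25, B2m, Tap1, Psmb8 at -1.28 and Nlrc5, all lower). Without replicates 18 and 21, the ends of the cSCC range, there were 1 (Nlrc5, -1.85) and 3 (B2m, Tap1 and Nlrc5), and without replicates 20 and 21 there was 1 in each, Nlrc5.

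To find genes with the pattern of the 10, each of 12866 genes with at least 1 CPM in 10 or more samples was standardized over the 20 samples and its mean absolute difference from the mean profile of the members was taken. The 5 non-members nearest to it were H2-T22 (0.269 SD) and H2-T23 (0.308), which are nonclassical class I heavy chains, 2810474O19Rik (0.396), Icos (0.400), a T cell costimulator, and Parp14 (0.410), an interferon-induced gene. Among members, Psmb9 was nearest (0.234) and Psmb8, H2-K1 and Tap1 came within the first 6 of all genes, which their part in the mean favors. Psmb10 (0.700, rank 525) and Nlrc5 (0.718, rank 631) were farthest, so the 2 members that were DEGs in cSCC were also those least like the common profile. Both results use the same cSCC values, so they are not independent. H2-T22 was at 346, 138, 92.2 and 30.1 CPM in cSCC replicates 18 to 21 and 91.5 to 293 CPM in NS, and it was not a DEG in any comparison.

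Genes of the interferon response that feed class I transcription held DEGs in AK vs. NS, where the 10 members held none; the difference between the lists was not tested. Of 16 such genes, 13 were tested in AK vs. NS, of which 3 rose and none fell (2.26% and 2.38% of all genes), with a median log2 fold change of 0.16 against -0.04 over all genes. Stat2, a transcription factor of the type I interferon response, rose by 1.14 ± 0.23 on the log2 scale (SE; adjusted p = 0.0190, edgeR), from 10.4 to 35.9 CPM in NS to 34.8 to 64.3 CPM in AK. Irf1, an activator of class I and immunoproteasome genes, rose by 0.88 and Jak2, a kinase of the interferon-gamma receptor, by 0.77 (adjusted p = 0.0190 and 0.0215, edgeR). All 3 were DEGs by DESeq2, limma voom and with library size alone, but none in a fit of all 20 samples, where the adjusted p-values were 0.0765 to 0.195. Ifng, the gene of interferon-gamma itself, was at 0 to 2.25 CPM in NS and at 1.20 to 8.45 CPM in AK (2 counts in AK replicate 16). It did not pass the low-count filter of this comparison. Of the leucocyte markers, 9 were tested, 8 of them with a positive log2 fold change (median 0.52). None was a DEG by edgeR, where 3 had an unadjusted p under 0.05, or by DESeq2, while Ptprc, Cd8b1 and Cd68 rose by limma voom (adjusted p = 0.0394, 0.0307 and 0.0426). By edgeR, Ptprc differed by 0.66 (95% interval 0.19 to 1.13; adjusted p = 0.0843) and Cd8a by 1.38 (0.05 to 2.7; adjusted p = 0.186) between AK and NS, and the part of leucocytes in these differences was not tested.

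In cSCC vs. NS, 2 of 13 tested genes of this list rose and none fell, while 11.7% of all genes rose and 7.65% fell. They were Irf1, which rose by 1.26, and Socs3, an inhibitor of cytokine signaling, by 1.71 (adjusted p = 0.0187 and 0.0216, edgeR), and without cSCC replicate 19 neither was a DEG (0.76 and 1.25). Against AK, 2 of 14 rose and 1 fell, while 16% of all genes rose and 8.34% fell, so the counts were near those shares. Stat2 fell by 1.34 (adjusted p = 0.0104, edgeR), with 25.7, 8.79, 23.9 and 11.7 CPM in cSCC replicates 18 to 21, below every AK library, and it was a DEG in all 10 alternatives run for this list. Socs3 rose by 1.32 (0.87 without replicate 19, adjusted p = 0.0741). Ifngr2, a chain of the interferon-gamma receptor, rose by 2.11, but it was at 317 CPM in replicate 21 and at 29.6 to 41.3 CPM in the other 3, and without replicate 21 the difference was 0.30 (adjusted p = 0.582). Ifng was at 0 counts in cSCC replicates 18 and 21 and at 2.64 and 2.28 CPM, from 6 and 2 counts, in replicates 19 and 20, and it was also at 0 counts in NS replicates 1, 2 and 4. With library size alone, none of this list rose against NS and Ifngr2 alone rose against AK.

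Other genes of antigen processing and loading were listed as a group of 12, all tested. In AK vs. NS 1 rose, Erap1, the peptidase that trims peptides for class I, by 0.75 (adjusted p = 0.0289, edgeR), from 21.4 to 50.6 CPM in NS to 50.3 to 82.9 CPM in AK, while 2.26% of all genes rose. In a fit of all 20 samples it was not a DEG (adjusted p = 0.113). In cSCC vs. NS 4 of 12 rose and 1 fell (11.7% and 7.65% of all genes), with a median log2 fold change of 0.07 against 0.14 over all genes. Calr, the chaperone calreticulin of the loading complex, rose by 1.22 (adjusted p = 0.00897), with 273, 695, 400 and 607 CPM in cSCC replicates 18 to 21 and 160 to 315 CPM in NS. Psme3, a proteasome activator subunit, rose by 1.20, Pdia3, a thiol oxidoreductase of the loading complex, by 0.96 and Tapbpl, a relative of tapasin, by 1.24 (adjusted p = 0.00574, 0.0230 and 0.0288). Ide, a cytosolic metalloprotease, fell by 1.72 (adjusted p = 0.0103), from 513 to 1010 CPM in NS to 456, 120, 200 and 119 CPM in cSCC. In cSCC vs. AK 3 rose, Calr by 1.34, Psme3 by 1.04 and Pdia3 by 0.67, and Ide fell by 1.62 (16% of all genes rose and 8.34% fell), and 6 of the 12 log2 fold changes were positive. Calr against AK was a DEG in all 10 alternatives run. Tapbpl was not a DEG without replicate 19, 20 or 21, Pdia3 not without replicate 19 (0.72 and 0.43) and, against AK, not without 18 (0.66), Psme3 against AK not without replicate 21 (0.71), and Ide not without both 20 and 21 (adjusted p = 0.0662 and 0.0622). With library size alone, Psme3 was the 1 of the 4 that rose in cSCC vs. NS, and Calr was at 1.02 with an adjusted p of 0.0575.

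Of 22 other class I and class I-like heavy chains listed, 18 were in the table and 16 were tested. None was a DEG in AK vs. NS by edgeR, where H2-M3 and H2-M5 had an unadjusted p under 0.05 (log2 differences 0.84 and -1.23, adjusted p = 0.0750 and 0.103). H2-M3 was a higher DEG by DESeq2 (adjusted p = 0.0330) and limma voom (0.0316), and H2-M5 a lower one by DESeq2 (0.0453) but not by limma voom (0.113). In both cSCC comparisons 3 of 16 rose and none fell, where 11.7% (vs. NS) and 16% (vs. AK) of all genes rose, with medians of 0.08 against NS and -0.21 against AK. Fcgrt, the neonatal Fc receptor, which is class I-like but presents no peptide, rose by 1.68 against NS and by 2.64 against AK (adjusted p = 0.0406 and 0.00536, edgeR), with 15.3, 112, 87.6 and 137 CPM in cSCC replicates 18 to 21. Against AK it was a DEG in all 10 alternatives, and against NS it was not without replicate 19, 20 or 21. H2-Q2 rose by 2.04 and 1.96 and H2-Q10 by 1.40 and 1.36, but both were highest in replicate 20, the library with lung genes (96.7 and 139 CPM, against 5.62 to 17.4 and 16.4 to 43.1 CPM in the other 3). Without that library, the log2 differences were 0.55 and 0.51 for H2-Q2 and 0.52 and 0.51 for H2-Q10, and none was a DEG. With library size alone, no heavy chain of the list rose against NS. Their sequences resemble those of other heavy chains, so their counts are uncertain.

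NLRC5 works with the RFX, CREB/ATF and NF-Y factors on class I promoters, and with NF-kappaB genes these made a list of 12, all tested. In AK vs. NS 1 rose, Atf1, by 0.60 (adjusted p = 0.0247, edgeR), but it was not past the fold limit with library size alone (0.51) and not a DEG in a fit of all 20 samples (adjusted p = 0.0870). In cSCC vs. AK Atf1 fell by 1.01 (adjusted p = 0.00567), with 65.6 to 92.3 CPM in AK and 26.4, 36.9, 35.3 and 38.2 CPM in cSCC replicates 18 to 21, and it was a DEG in all 10 alternatives run. Rfxap, a subunit of the RFX complex, fell by 1.58 against NS (adjusted p = 0.0415), at 1.32 to 7.64 CPM in cSCC, which was at or under the level of 3 counts in replicates 19 and 20. Without replicate 19, 20 or 21 it was not a DEG (adjusted p = 0.106, 0.0757 and 0.101). These counts of 1 of 12 compare with 2.26% of all genes higher in AK vs. NS and 7.65% and 8.34% lower in cSCC vs. NS and vs. AK. The median of the 12 was 0.21 in AK vs. NS, -0.28 in cSCC vs. NS and -0.36 in cSCC vs. AK.

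**Figure D4:**
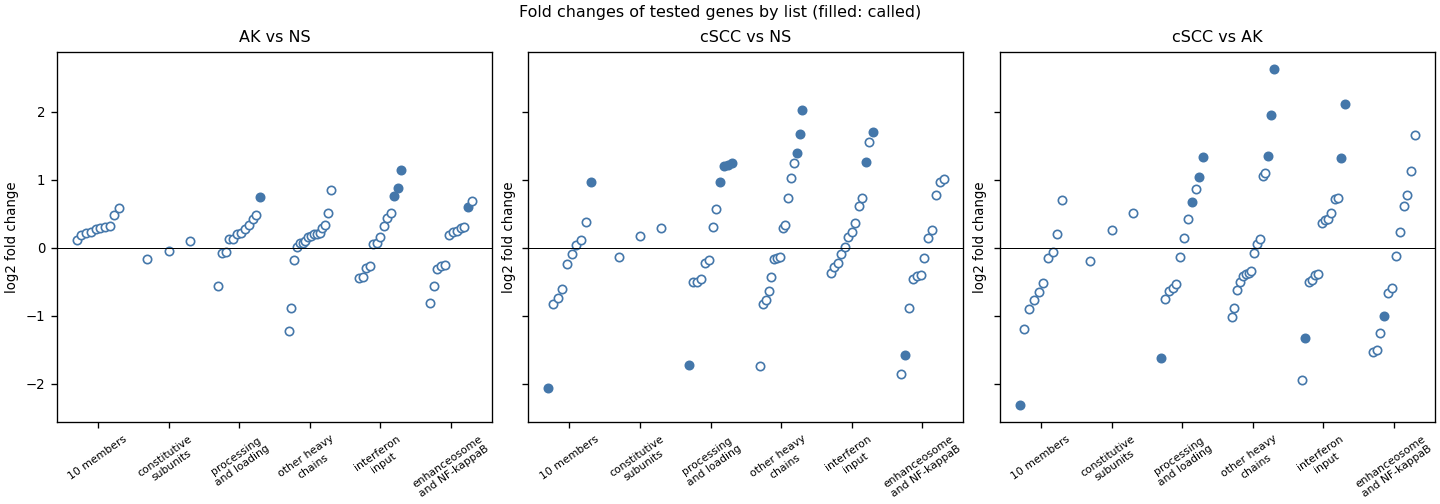
Log2 fold change of every tested gene of the 10 members and the 5 related lists in the 3 comparisons, with filled circles for DEGs. In AK vs. NS the members hold no filled circle while 3 interferon input genes do (0.77 to 1.14), and in both cSCC comparisons Nlrc5 is the lowest of the members (-2.06 and -2.32).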

How the data were processed

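Bulk RNA-seq of 20 mouse skin samples was used. The authors deposited raw counts per gene symbol, without normalization. By the study's methods and the submitters' processing notes, reads were trimmed with Trimmomatic 0.36 and aligned with HISAT2 2.0.5. The methods name GRCm38 and StringTie, while the notes list mm9, hg19 and featureCounts 1.5.2, and the strand setting is not given in the sources used here. Overlapping and near-identical genes can therefore share or lose reads. Samples were grouped by label. The 10 genes and all gene lists were chosen with earlier results of these data known.

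CPM used TMM factors over the 20 samples. Groups were compared in pairs with edgeR 4.0.16 in R 4.3.3 (quasi-likelihood test, filterByExpr, Benjamini-Hochberg adjustment over all genes tested, adjusted p-value under 0.05, fold change above 1.5 or below 0.67). No duplicate libraries were found within groups, as the counts of all 62 such pairs differed (chi-square per degree of freedom of at least 11.3). Count ratios added 0.5 counts and were compared by two-sided exact permutation tests, 12 in all. Floors cover counting error only. Nothing in the labels says that samples are separate animals, so p-values measure the spread between samples. The text names all members, Psmb5, Psmb6, Psmb7, Irf1, Ifng, Cd8a and Ptprc, up to 4 DEGs of each list per comparison by size, and the 5 most alike non-members; Nkg7, Cd8b1, Cd68, H2-M3 and H2-M5 were chosen with their values known. A withheld item of the naming rule and of 1 list is not reported here. Alternatives were other scalings (upper quartile, RLE, library size), DESeq2 1.42.0, limma 3.58.1 voom with quality weights, other filters and limits, a pseudocount of 5, 1 fit of all samples and leaving out samples; leaving out cSCC replicates 18 and 21 was chosen after seeing the data. The scripts were tested on simulated data. Of genes set to a log2 fold change of 2 up or down, 95.2% were recovered as DEGs in AK vs. NS. The share was 47.2% in cSCC vs. NS and 51.0% in cSCC vs. AK, so a gene that was no DEG in cSCC may still differ. Python 3.11.15, numpy 2.4.6, pandas 2.3.3, scipy 1.17.1 and matplotlib 3.10.9 were used.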

Additional observations from a re-analysis of the deposited data

Results flagged for a closer look

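Among 42 sets of values by group that were checked for a sample far from the rest, 1 was found. The log2 ratio of Psmb9 to Psmb6 counts was -4.71 in cSCC replicate 21, the library with heart genes, and the next lowest cSCC value was -2.76, a gap of 0.840 of the group's range. Chance alone sets apart about 1 in 20 such groups.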

How the results depend on the processing

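No paired analysis was possible because the groups share no replicate numbers. Over all alternatives, 97 of 119 recomputed counts of DEGs or of ratio tests stayed within 1.5 times their main value. For AK vs. NS the count of members that were DEGs was 0 and the count of ratio tests passed was 0 throughout. For cSCC vs. NS the count of 2 members became 1 with limma voom, with no gene filter, with all 20 samples in 1 fit, without cSCC replicates 20 and 21 and without 18 and 21, and 1 to 3 when single samples were left out. With library size alone the count stayed at 2, but both members were lower, so Psmb10 was not among them. For cSCC vs. AK the count of 1 became 3 with library size alone, with all 20 samples in 1 fit, with an unadjusted p and without cSCC replicates 18 and 21, 2 with DESeq2 and limma voom, and 1 to 5 when single samples were left out. The ratio tests passed became 0 to 1 for cSCC vs. NS and 0 to 2 for cSCC vs. AK when single samples were left out. The cause of these moves was not tested.

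Nlrc5 was lower and a DEG in all 24 alternatives of both comparisons, at -2.46 to -1.39 against NS (adjusted p 0.00121 to 0.0444, edgeR, DESeq2 or limma) and at -2.75 to -1.65 against AK (9.38e-05 to 0.0182). Psmb10 in cSCC vs. NS was at 0.64 to 1.17 (adjusted p 0.0164 to 0.175) and was no DEG in 9 of 12 fits without 1 sample, those without NS replicates 1, 2, 4, 5, 6 or 9 or cSCC replicates 18, 19 or 20. Library size alone moved the median log2 fold change of all genes from -0.04 to -0.13 in AK vs. NS, from 0.14 to -0.17 in cSCC vs. NS and from 0.17 to -0.09 in cSCC vs. AK, and the higher and lower DEGs from 264 and 278 to 176 and 481, from 1414 and 926 to 625 and 1332, and from 1931 and 1004 to 1021 and 1356. Upper quartile factors gave 190 and 391 in AK vs. NS.

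Signs turned only for members and ratios that passed no test. In cSCC vs. NS, Tap2 was at -0.029 with upper quartile factors, -0.32 with library size alone, -0.38 with voom, -0.013 with no gene filter, -0.043 with all 20 samples, -0.70 without replicates 20 and 21 and -0.95 without 18 and 21; Tapbp was at -0.20 with library size alone and -0.086 without 18 and 21; Psmb8 was at 0.17 with voom and 0.45 without 20 and 21, and Psmb9 at 0.29 without 20 and 21. In cSCC vs. AK, Tap2 was at 0.081 and Tapbp at 0.076 with at least 10 counts in every sample. Without replicates 20 and 21, Psmb8 to Psmb5 was at 0.52 against NS, and Psmb9 to Psmb6 at 0.33 against NS and 0.12 against AK. Leaving out single samples gave, against NS, -0.69 to 0.26 for Psmb8, -0.92 to 0.11 for Psmb9, -0.60 to 0.31 for Tap2, -0.84 to 0.37 for Psmb8 to Psmb5 and -0.53 to 0.24 for Psmb9 to Psmb6, and, against AK, -0.044 to 0.28 for H2-D1, -0.93 to 0.13 for Tap2, -0.25 to 0.0048 for Tapbp and -0.75 to 0.026 for Psmb9 to Psmb6. The 4 cSCC samples and their spread limit the 2 comparisons that use them.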
